A study of Homo sapiens with 24 samples.

Results

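The genes described here encode the nuclear subunits of the mitochondrial respiratory chain and of ATP synthase, followed over 24 time points in K562 cells. They were taken from the deposited expression table by symbol: protein-coding genes of GENCODE 29 whose symbols begin with NDUFA, NDUFB, NDUFC, NDUFS, NDUFV, UQCR, COX4 to COX8 or ATP5, or are exactly SDHA, SDHB, SDHC or SDHD, with the NDUFAF assembly factors left out. The annotation holds 91 such genes, of which 83 are among the 12285 genes of the table. By complex, 37 belong to complex I (7 core and 30 accessory subunits), 4 to complex II, 9 to complex III, 13 to complex IV and 19 to complex V, and 1 is a readthrough transcript, ATP5MF-PTCD1. The table lists only genes that reached 1 FPKM, a read count scaled to transcript length and library size, in at least 12 time points, and 8 genes of the rule are not in it. These are COX4I2, COX6A2, COX7A1, COX7B2, COX8C and NDUFA4L2, most of them known as tissue-specific isoforms, together with ATP5MGL and the readthrough NDUFC2-KCTD14.

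Complexes I to IV pass electrons from NADH and succinate to oxygen in the inner mitochondrial membrane, and complexes I, III and IV pump protons as they do so. Complex V, ATP synthase, lets protons flow back through a ring of c subunits, which turns a central shaft inside the catalytic head and drives ATP formation. Apart from complex II, each complex is built from subunits of both the nuclear and the mitochondrial genome in fixed ratios, and NRF1, the ETS factor GABPA and YY1 are known activators of the nuclear genes.

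K562 is an established erythroleukaemia line that grows in suspension. The cells were kept in RPMI with 10% bovine calf serum and antibiotics, and a synchronous population was collected by centrifugal elutriation, which sorts cells by size. One library was made at each of 24 time points, every 2 h from 0 h to 46 h, with acid phenol extraction. All time points share the line, the medium and the elutriation, and no time point had a replicate, so each value is from a single library, and a difference was judged against how far the same gene moved at other hours. In such bulk samples, fewer cells of a kind and less RNA per cell cannot be told apart.

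The study named 16 h and 18 h as time points at which many transcripts depart from their neighbours, which it calls STRIPEs, and 32 h as a milder case. It describes STRIPEs as present over the whole transcriptome and proposes that they are technical, not biological, in origin. That origin was not tested here. The libraries at 16 h and 18 h also stood apart here: their summed FPKM over all genes were 566247 and 591309, against 456791 to 520382 at the other 22 time points, and 102 and 115 genes were listed at 0, against 4 to 58. All 8 erythroid markers fixed for the line were in the table, with mean levels from 47.4 FPKM for TAL1 to 2225 FPKM for HBG2, whose reads may be shared with HBG1. Of the markers of other lineages, 2 of 5 lymphoid (0.923 and 7.05 FPKM), 1 of 4 fibroblast (2.93 FPKM) and 2 of 3 epithelial genes (43.1 FPKM for KRT19 and 66.4 FPKM for EPCAM) were listed. The depth of the libraries is unknown, since reads could not be recovered from the FPKM values.

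The subunit mRNAs were abundant. Their median mean level was 149 FPKM, against 13.7 FPKM for all genes, 79 of the 83 averaged 10 FPKM or more and 55 averaged 100 FPKM or more. FPKM is scaled to transcript length, so levels can be compared between genes. The median mean level was 288 FPKM for complex V, 280 FPKM for complex IV, 192 FPKM for complex III, 97.4 FPKM for complex I and 66.9 FPKM for complex II. Levels within a complex were far apart. The lowest gene in complexes III, IV and V is not a constitutive subunit, so the fixed ratios need not apply to it. In complex V the mean ranged from 1061 FPKM for ATP5F1B, the catalytic beta subunit, to 8.43 FPKM for ATP5S, which is not a constitutive subunit and is listed by RefSeq as DMAC2L. After ATP5S the next lowest was ATP5F1D at 102 FPKM. In complex IV the mean ranged from 539 FPKM for COX7C to 1.12 FPKM for COX6B2, known as the testis isoform. The next lowest there were COX7A2L at 103 FPKM and COX6A1 at 126 FPKM. In complex III, UQCRH, the hinge protein, was highest at 491 FPKM, and its near-identical relative UQCRHL was lowest at 1.01 FPKM, a value that is uncertain because reads of the pair can be shared. In complex I, NDUFS5 was highest at 345 FPKM and NDUFS4, an accessory subunit whose loss causes Leigh syndrome, lowest at 37.8 FPKM. The transcripts were short, with a median length of 712 bases against 1565 for all genes in the same annotation. Their median GC content of 49.9% was close to that of all genes, 49.2%.

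Outside 16 h and 18 h the levels varied little. The median coefficient of variation over the other 22 time points was 10.0%, against 14.2% for all genes, and 68 of the 83 genes lay below that all-gene median. The highest of these 22 values was less than 2-fold above the lowest in 75 of the 83 genes. NDUFB9, an accessory subunit of complex I, was the steadiest, with a coefficient of variation of 5.44%. UQCRC2, a core protein of complex III, ranged from 169 to 213 FPKM around a median of 190 FPKM, and ATP5F1A, the alpha subunit of ATP synthase, from 246 to 315 FPKM around 285 FPKM. SDHC, one of the membrane anchors of complex II, was an exception, ranging from 21.8 FPKM at 32 h to 66.9 FPKM at 22 h.

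At 16 h and 18 h the subunit mRNAs split apart, with more genes below their neighbouring hours than above, and further below. Together they held 2.56% and 2.48% of all summed FPKM at these hours, against 3.26% to 3.74% at the other 22, and both values lay below that range. Each gene's deviation was taken as the mean distance of its 16 h and 18 h values from a line drawn between 14 h and 20 h, on the log2(FPKM + 1) scale, which understates the change of low genes. By this measure 58 of the 83 genes lay below the line and 25 above it, where 41.9% of all genes lay below. The members' median deviation was -0.40, while the median over all genes was 0.14. The same median at 16 other pairs of consecutive hours lay between -0.11 and 0.15, and at none of those pairs was any of the 83 genes 2-fold off its line. The erythroid markers were also low at these hours, with a median deviation of -1.38, 7 of 8 below the line and 6 of 8 at least 2-fold below it, and their part in the members' values was not tested.

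A total of 18 of the 83 genes (21.7%) were at least 2-fold below the line, against 7.11% of all genes tested. None was at least 2-fold above it, where the share of all genes was 8.95%. In 36 of the 83 (43.4%) both values were below everything seen at the other 22 hours, against 19.7% of all genes, and in 10 (12.0%) both were above, against 30.8%. The remaining 37 overlapped the range of the other hours in at least 1 of the libraries. The sign was the same at 16 h and at 18 h for 77 of the 83. Both hours were measured from the same line, and r between their deviations was 0.97 across the members and 0.94 across all genes. Relative to an all-gene median set to the same level at every hour the falls were larger, since that median shifts from 0.14 to 0.03 with median centring, and the members' median was then -0.52. The sign of the deviation was the same under all 8 settings of scaling, pseudocount and trend removal for 52 genes below the line and 11 above, and it changed in at least 1 setting for the other 20, among them ATP5F1A, ATP5F1E, ATP5MD, ATP5MG, ATP5PB, COX4I1, COX7A2L, NDUFA10, NDUFA11, NDUFA12, NDUFB1, NDUFB7, NDUFS1, NDUFS8, NDUFV1, SDHA, SDHB, UQCRB and UQCRC2.

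**Figure D1:**
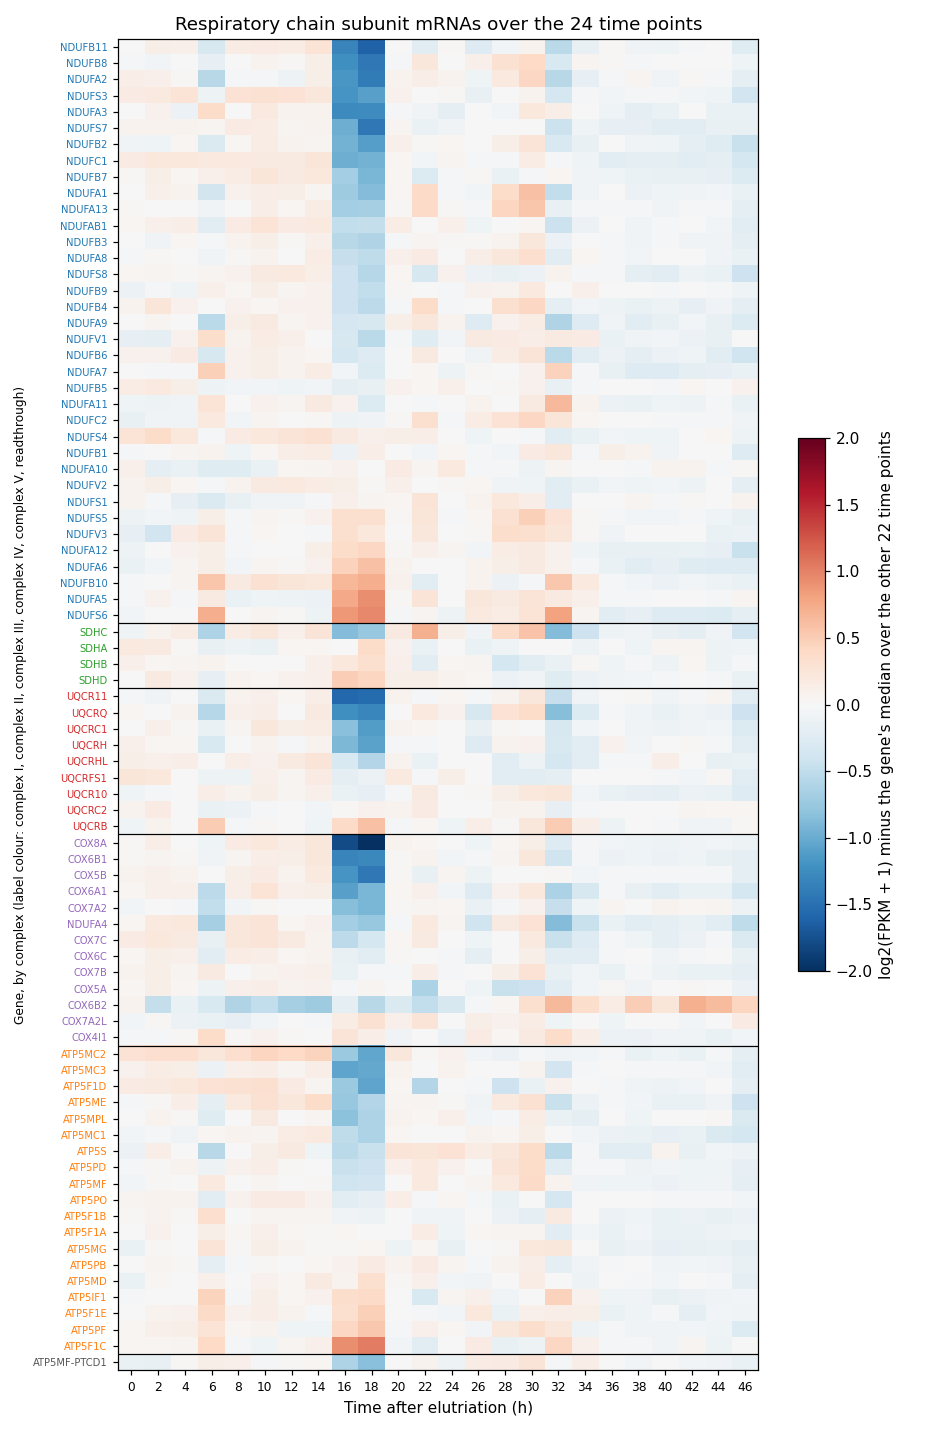
Levels of 82 of the genes (rows, by complex, each ordered by its deviation at 16 h and 18 h) at the 24 time points (columns, hours), coloured by log2(FPKM + 1) minus the gene's median over the other 22 time points. The 16 h and 18 h columns hold the strongest blue, down to COX8A and UQCR11, beside a smaller block of red that includes NDUFS6, NDUFA5 and ATP5F1C, and the 6 h and 32 h columns hold paler changes.

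The upstream sequences of a few genes below and above the line are shown, each of which holds a motif of NRF1, the ETS family or YY1. Among the genes shown, only the NRF1 motif is marked on both sides, in COX5B below and in NDUFS6, ATP5F1C and ATP5PF above. Other genes far from the line, among them NDUFB11, COX6B1 and NDUFA5, held no NRF1, ETS or YY1 motif. RefSeq promoters (GRCh38.p14, from 250 bases before to 50 after the start) were matched for 67 of the 83 genes. The motifs searched on both strands were GCGCATGC for NRF1, CCGGAAGT for the ETS family, AAGATGGC for YY1 and CCAAT for NFY. The first has a palindromic core, so its strands can overlap. The lines give the 250 bases before the start, 5′ to 3′ on the gene's strand, with NRF1, ETS and YY1 motifs in capitals: COX8A at chr11:63974370-63974619 (plus strand) lay furthest below the line and COX5B at chr2:97645812-97646061 (plus) was also more than 2-fold below it, while NDUFS6 at chr5:1801157-1801406 (plus), ATP5F1C at chr10:7787927-7788176 (plus) and ATP5PF at chr21:25735055-25735304 (minus) read above the range of their other hours.
COX8A: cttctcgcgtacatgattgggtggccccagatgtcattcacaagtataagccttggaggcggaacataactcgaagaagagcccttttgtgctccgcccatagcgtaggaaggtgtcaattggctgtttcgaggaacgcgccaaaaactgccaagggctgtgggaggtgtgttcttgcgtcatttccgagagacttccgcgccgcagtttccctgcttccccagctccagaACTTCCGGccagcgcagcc
COX5B: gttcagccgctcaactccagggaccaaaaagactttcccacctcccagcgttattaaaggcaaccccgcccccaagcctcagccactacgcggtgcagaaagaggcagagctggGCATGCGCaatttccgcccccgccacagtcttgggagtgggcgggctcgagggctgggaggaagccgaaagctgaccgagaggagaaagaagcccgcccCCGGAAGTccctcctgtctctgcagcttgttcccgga
NDUFS6: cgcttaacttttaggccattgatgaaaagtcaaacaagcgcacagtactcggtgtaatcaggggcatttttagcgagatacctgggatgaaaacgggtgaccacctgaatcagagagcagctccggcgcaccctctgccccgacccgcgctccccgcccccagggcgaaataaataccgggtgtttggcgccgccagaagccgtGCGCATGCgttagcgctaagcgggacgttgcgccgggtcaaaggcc
ATP5F1C: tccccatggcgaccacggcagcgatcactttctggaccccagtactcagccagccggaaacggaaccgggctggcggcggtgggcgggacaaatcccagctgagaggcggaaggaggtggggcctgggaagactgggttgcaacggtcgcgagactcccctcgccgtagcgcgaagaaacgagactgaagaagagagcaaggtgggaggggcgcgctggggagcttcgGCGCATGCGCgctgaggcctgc
ATP5PF: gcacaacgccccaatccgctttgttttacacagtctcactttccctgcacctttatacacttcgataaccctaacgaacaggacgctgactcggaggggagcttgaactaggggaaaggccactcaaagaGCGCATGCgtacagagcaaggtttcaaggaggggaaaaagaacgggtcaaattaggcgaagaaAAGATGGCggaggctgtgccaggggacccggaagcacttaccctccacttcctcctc

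COX8A holds an ETS motif read on the opposite strand, COX5B an NRF1 and an ETS motif, with another ETS motif that runs past the start and is not in capitals, NDUFS6 and ATP5F1C an NRF1 motif, and ATP5PF an NRF1 and a YY1 motif. Over the 67 promoters, the NRF1 motif was in 13 (19.4%), against 6.30% of the 8932 matched promoters of the table's genes and 3.27% of all 27305 promoters. The YY1 motif was in 11 (16.4%, against 6.24% and 3.03%) and the ETS motif in 10 (14.9%, against 10.2% and 4.44%). CCAAT was in 23 (34.3%), close to the 37.9% and 35.7% of the other sets. Each of these motifs was in promoters of genes on both sides of the line at 16 h and 18 h: NRF1 was in 4 of the 16 matched promoters of genes at least 2-fold below the line and in 6 of the 22 of genes above it, YY1 in 3 and 4, ETS in 4 and 3, and CCAAT in 5 and 11. These are matches of letters and not measured binding.

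Complex I, which takes electrons from NADH, had 28 genes below the line and 9 above, with a median deviation of -0.42 (-0.42 for the core, -0.38 for the accessory subunits). Of its 37 genes 8 were at least 2-fold below, 18 had both values below the range of the other hours and 6 had both above. The 7 nuclear core subunits, which carry the flavin and iron-sulphur clusters, did not move together. NDUFS3, a subunit of the arm that leads to the quinone site, read 151 FPKM at 14 h, 56.4 and 60.4 FPKM at 16 h and 18 h and 138 FPKM at 20 h, and at the other 22 hours it was between 98.9 and 160 FPKM with a median of 129 FPKM. NDUFS7, which holds the last iron-sulphur cluster before quinone, went from 87.8 FPKM to 41.8 and 30.3 FPKM and back to 86.1 FPKM, with 61.8 to 93.3 FPKM at the other hours. Both genes were below their whole range in both libraries, with deviations of -1.29 and -1.27. With a GC trend removed NDUFS3 was at -1.13 and NDUFS7 at -0.42, no longer 2-fold below.

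NDUFS8 deviated by -0.57 and NDUFV1, the flavin-binding subunit that accepts electrons from NADH, by -0.42. With GC and length trends removed NDUFV1 was at 0.03. As deposited it read 202 and 174 FPKM, below the 214 to 325 FPKM of the other hours, whereas NDUFS8 at 69.7 and 62.5 FPKM overlapped its lowest value of 69.3 FPKM at 46 h. Others stayed near the line. NDUFV2, which sits beside NDUFV1 in the NADH-binding module, deviated by -0.05, and NDUFS1, the largest subunit, by 0.08. The sign of NDUFS1 turned negative under upper-quartile scaling (-0.15), and that of NDUFS8 turned positive with a smooth GC trend removed (0.12).

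Among the accessory subunits NDUFB11 was furthest below the line. It is an X-linked subunit of the membrane arm and read 25.4 and 20.5 FPKM at 16 h and 18 h, against 44.4 to 78.9 FPKM (median 65.1 FPKM) at the other hours, a deviation of -1.61. NDUFB8 (-1.38), NDUFA2 (-1.37), NDUFA3 (-1.29), NDUFB2 (-1.10) and NDUFC1 (-1.09) were also at least 2-fold below the line and below their whole range. Furthest above the line of all 83 genes was NDUFS6, a small zinc-binding subunit, at 232 and 247 FPKM against 119 FPKM at 14 h and 123 FPKM at 20 h, a deviation of 0.98. Its other hours held 105 to 222 FPKM, and the values nearest to those of 16 h and 18 h were the 222 FPKM of 32 h and the 211 FPKM of 6 h. NDUFA5, the most AT-rich of the members with a GC content of 34.4%, read 419 and 473 FPKM, above every other hour (median 248 FPKM, deviation 0.89, and 0.38 with a GC trend removed). The accessory subunits closest to the line were NDUFA10 (-0.07, and 0.04 with a length trend removed), NDUFB1 (-0.07, and 0.16 with a length trend removed) and NDUFS4 (-0.07).

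Complex II, succinate dehydrogenase, which also works in the citric acid cycle, was the only complex with a median above the line (0.15, 4 genes). That sign does not hold under 3 of the alternatives: it was -0.087 with upper-quartile scaling, -0.17 with quantile normalization and -0.034 with a GC trend removed. SDHA, the flavoprotein, read 62.6 and 81.4 FPKM between 64.3 FPKM at 14 h and 66.9 FPKM at 20 h. SDHB, the iron-sulphur protein, read 255 and 275 FPKM, above its 172 to 236 FPKM at the other hours (deviation 0.17, and -0.15 with a GC trend removed). SDHD, a membrane anchor, read 97.2 and 92.7 FPKM, also above its range of 57.7 to 77.8 FPKM.

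The partner of SDHD in the membrane, SDHC, was on the other side of the line. It read 48.4, 21.6, 23.6 and 45.9 FPKM from 14 h to 20 h, a deviation of -1.03, and it was the only gene at least 2-fold below the line that overlapped its other hours, because it also read 21.8 FPKM at 32 h and 26.1 FPKM at 6 h. The summed FPKM of the 4 genes was 437 and 473 at 16 h and 18 h, above the 344 to 424 of the other hours. As a share of all summed FPKM, which was itself higher at these hours, it was 0.0771% and 0.0800%, within the 0.0680% to 0.0891% of the other hours.

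Complex III, which hands electrons from ubiquinol to cytochrome c, had a median of -0.61 over 9 genes, and the gene at that median is UQCRHL, at about 1 FPKM. A total of 7 genes were below the line and 2 above. UQCR11, a small subunit of the membrane part, read 69.9 and 70.8 FPKM between 229 and 220 FPKM, against a range of 151 to 245 FPKM at the other hours. UQCRQ, another small subunit, read 126 and 119 FPKM, against 164 to 385 FPKM. The core protein UQCRC1 read 81.5 and 67.5 FPKM, against 118 to 171 FPKM (deviation -1.09, and -0.64 with a GC trend removed).

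UQCRC2, with which UQCRC1 forms the matrix core, deviated by 0.04 (-0.27 with a GC trend removed), at 193 and 201 FPKM between 183 and 200 FPKM. UQCRFS1, the Rieske iron-sulphur protein and the least abundant of the 9 after UQCRHL at a mean of 24.4 FPKM, deviated by -0.33 and overlapped its other hours. UQCRB read 380 and 435 FPKM against 271 to 415 FPKM at the other hours, where its highest values were at 6 h and 32 h, and with a GC trend removed its deviation of 0.54 became -0.06. Summed over the complex, the level was 1241 and 1252 FPKM, below the range of 1570 to 2007 FPKM.

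Complex IV, cytochrome c oxidase, had 10 genes below the line and 3 above, with a median of -0.49. COX8A, the ubiquitous isoform of its smallest subunit, was furthest below the line of all members. It stood at 420 FPKM at 14 h, 103 FPKM at 16 h, 79.9 FPKM at 18 h and 377 FPKM at 20 h, and its 22 other values lay between 301 and 420 FPKM with a median of 360 FPKM. The deviation of -2.12 corresponds to 0.230 of the level on the line. COX6B1 (169 and 173 FPKM, against 319 to 497 FPKM), COX5B (102 and 85.7 FPKM, against 203 to 266 FPKM) and COX6A1 (deviation -1.09) were also at least 2-fold below and outside their ranges.

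COX5A, which like COX5B lies on the matrix side, deviated by -0.04, at 321 and 343 FPKM between 352 and 331 FPKM. COX4I1, the ubiquitous isoform of the largest nuclear subunit, deviated by 0.22, at 543 and 501 FPKM, within its other hours of 413 to 590 FPKM. Its sign turned with upper-quartile scaling (-0.01). NDUFA4, named for complex I but now placed in complex IV, read 142 and 135 FPKM against 125 to 280 FPKM, and COX7A2L, a factor of supercomplex formation, deviated by 0.19 (-0.26 with a GC trend removed). The summed level of the complex was 2567 and 2573 FPKM, below its range of 3118 to 4046 FPKM. The sums of complex I (4290 and 4244 FPKM, with 4207 FPKM at 46 h) and complex V (5973 and 6133 FPKM, with 5900 FPKM at 46 h) stayed within the range of their other hours. As shares of all summed FPKM, both were below their ranges at 16 h and 18 h. Complex I held 0.758% and 0.718%, against 0.921% to 1.05% at the other hours. Complex V held 1.05% and 1.04%, against 1.29% to 1.45%.

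In complex V, 11 genes were below the line and 8 above, with a median of -0.29. The catalytic head, F1, has its alpha and beta subunits on the line: ATP5F1A deviated by 0.01 (-0.25 with a GC trend removed) and ATP5F1B by -0.12, the latter at 1018 and 997 FPKM between 1111 and 1080 FPKM. The 3 subunits of the shaft went apart. ATP5F1C, the gamma subunit that turns inside the head, read 444 and 474 FPKM, above its 199 to 309 FPKM at the other hours (deviation 0.96, and 0.48 with a GC trend removed). ATP5F1D, the delta subunit, read 61.6 and 49.5 FPKM, below its 69.2 to 130 FPKM (-0.95, but -0.09 with a GC trend removed), and ATP5F1E, the epsilon subunit, was at 175 and 196 FPKM, which overlapped its 124 to 184 FPKM (0.41, and -0.19 with a GC trend removed). ATP5PF, coupling factor 6 of the outer stalk, read 366 and 395 FPKM, above 227 to 348 FPKM.

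The c-ring is encoded by 3 genes, ATP5MC1 on chromosome 17, ATP5MC2 on chromosome 12 and ATP5MC3 on chromosome 2, whose ends of the coding sequence are shown because they give 1 protein from 3 messages. The last 228 coding bases (GENCODE 29, GRCh38), 5′ to 3′ and with the stop codon, are given with each position at which the 3 genes are not all alike in capitals.
ATP5MC1: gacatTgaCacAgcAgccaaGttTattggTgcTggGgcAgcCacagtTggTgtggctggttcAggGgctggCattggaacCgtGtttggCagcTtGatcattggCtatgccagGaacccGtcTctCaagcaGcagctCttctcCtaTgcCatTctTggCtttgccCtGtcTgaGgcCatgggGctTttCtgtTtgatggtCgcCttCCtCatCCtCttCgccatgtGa
ATP5MC2: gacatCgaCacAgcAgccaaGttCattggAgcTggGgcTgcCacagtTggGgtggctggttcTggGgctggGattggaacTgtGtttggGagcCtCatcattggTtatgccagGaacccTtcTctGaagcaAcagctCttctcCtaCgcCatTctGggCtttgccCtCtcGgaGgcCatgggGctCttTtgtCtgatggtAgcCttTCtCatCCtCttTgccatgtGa
ATP5MC3: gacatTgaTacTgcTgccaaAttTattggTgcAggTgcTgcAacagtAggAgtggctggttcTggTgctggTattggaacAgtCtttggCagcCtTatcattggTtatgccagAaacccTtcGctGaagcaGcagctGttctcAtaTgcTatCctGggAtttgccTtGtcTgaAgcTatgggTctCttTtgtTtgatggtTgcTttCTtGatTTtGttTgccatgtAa

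The sequences differ at 53 of 228 positions, and all 76 codons have the same meaning in the 3 genes. The longest stretch shared by any pair is 17 bases. All 3 messages were below every other hour in both libraries. ATP5MC3, the most abundant at a mean of 751 FPKM, read 374 and 385 FPKM at 16 h and 18 h, against 602 to 865 FPKM at the other hours. ATP5MC2 read 166 and 134 FPKM, against 246 to 379 FPKM, and ATP5MC1 read 123 and 114 FPKM, against 137 to 201 FPKM. Their deviations were -1.14, -1.23 and -0.68, each below the gene's own range over the 16 other pairs of hours. The inhibitor ATP5IF1, which blocks ATP hydrolysis by the head, deviated by 0.32, at 384 and 391 FPKM within its 244 to 416 FPKM. The readthrough ATP5MF-PTCD1 (-0.75) shares reads with ATP5MF (-0.40) and is uncertain.

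**Figure D2:**
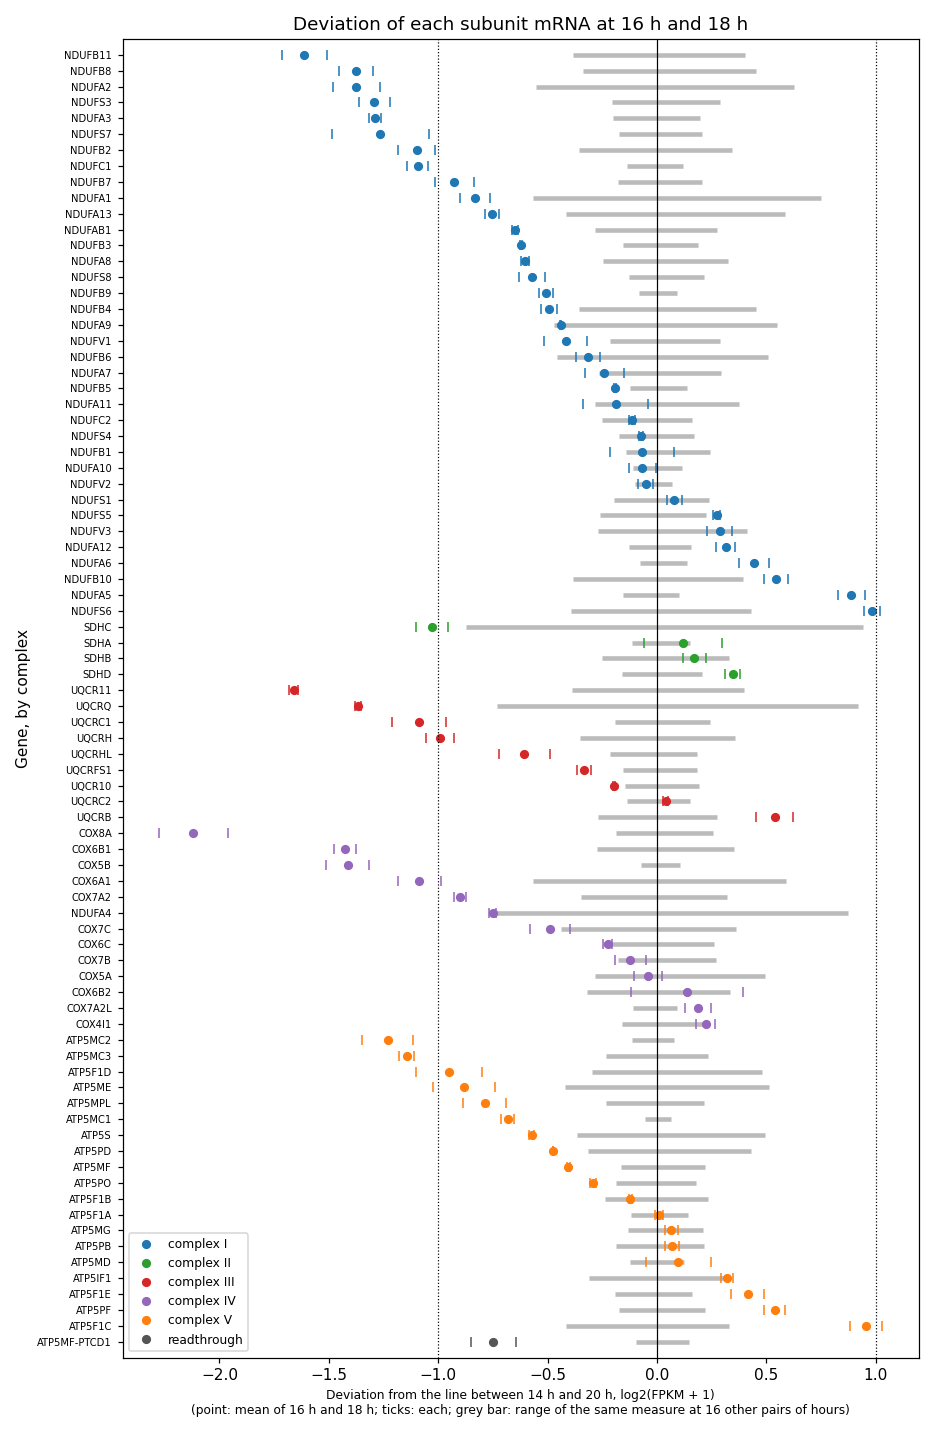
Deviation of 82 of the genes from the line between 14 h and 20 h in log2(FPKM + 1) (points: mean of 16 h and 18 h; ticks: each hour; grey bars: range of the same measure at 16 other pairs of hours), by complex. Points to the left of the grey bars number 45 and points to the right 14, and the dotted lines at -1 and 1 mark 2-fold. Of all 12253 genes tested, 3427 lay below and 5342 above their own ranges of this kind.

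**Figure D3:**
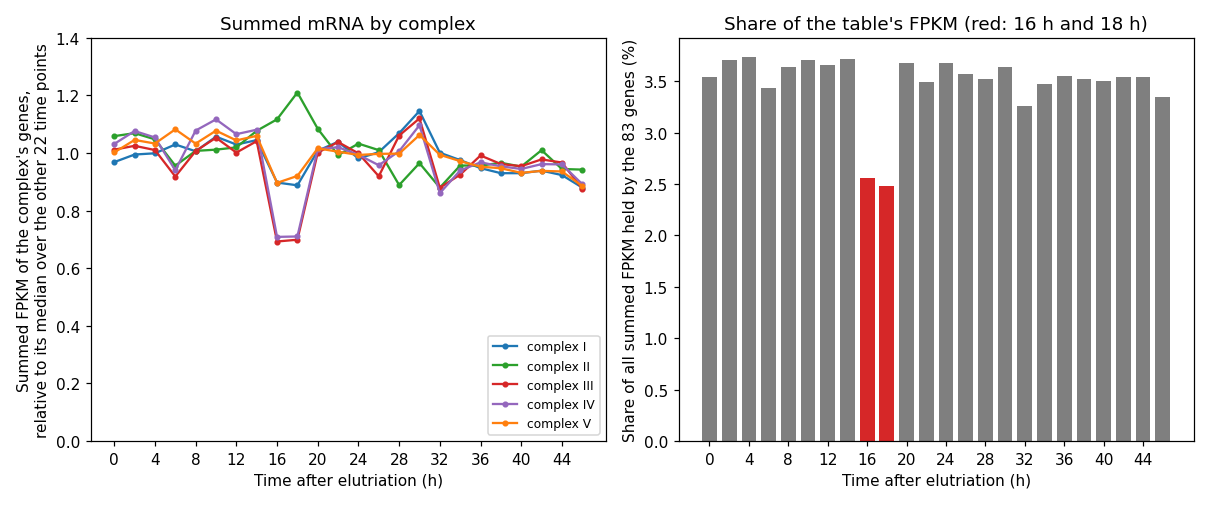
Left, summed FPKM of each complex relative to its median over the other 22 time points, against hours. Right, the percent of all summed FPKM held by the 83 genes at each hour, with 16 h and 18 h in red at 2.56% and 2.48%, below the other bars at 3.26% or more.

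Genes further below the line had transcripts with more GC, in the members as in all genes. Genes at least 2-fold below the line had a median GC content of 55.1%, those less far below it 48.4% and those above it 45.9%. Across the 83 genes Pearson's r between deviation and GC was -0.46 (Spearman's rho -0.44), and across 12117 genes it was -0.52 (rho -0.57). These are descriptions across genes of the same libraries, and genes are not independent replicates. With length r was 0.24 in the members and 0.20 in all genes. With a smooth GC trend over all genes removed, 20 members were at least 2-fold below the line, against 3.85% of all genes, and the members' median was -0.43. These 20 shared 15 genes with the 18 called without it: NDUFA3, NDUFS7 and UQCRC1 were no longer called, and ATP5MPL, COX7A2, NDUFA4, NDUFB3 and UQCRH were added. With GC and length trends both removed 15 members were called, against 3.01% of all genes, of which 12 were among the 18. The part of GC in these values was not tested.

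NDUFS6 and NDUFB10, with GC contents of 56.1% and 59.3%, lay above the line and so went against this trend, as did NDUFC1 (49.4%) and ATP5MC3 (47.8%), which were more than 2-fold below it.

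Smaller deviations of the same kind were present at 32 h and at 6 h. At 32 h, measured against the mean of 30 h and 34 h, the median deviation of the members was -0.15, with 52 of 83 below. Over all genes it was 0.03, with 5538 of 12253 below. At 6 h the members' median was -0.07, with 47 below, against 0.05 and 4919 of 12253 for all genes. Counts of members below were as high at some other hours, with 59 at 12 h and 52 at 40 h, where the medians were -0.04 and -0.02. The 18 genes at least 2-fold below the line at 16 h and 18 h were below their neighbours in 16 cases at 32 h and in 17 at 6 h, while of the 25 genes above the line 8 were below at 32 h and 5 at 6 h. Across the 83 genes r between the deviations at 16 h and 18 h and those at 32 h was 0.62 (0.60 across all genes), and between 6 h and 32 h it was 0.88 (0.69 across all genes). SDHC (-0.94), UQCRQ (-0.91) and NDUFA4 (-0.78) were furthest below at 32 h, and NDUFS6 was furthest above, at 0.64. A total of 29 genes had the lowest of their 22 other values at 32 h and 23 had it at 46 h, and 24 had the highest at 30 h. These counts were not set beside those of all genes, so they cannot be read as a trait of the members.

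**Figure D4:**
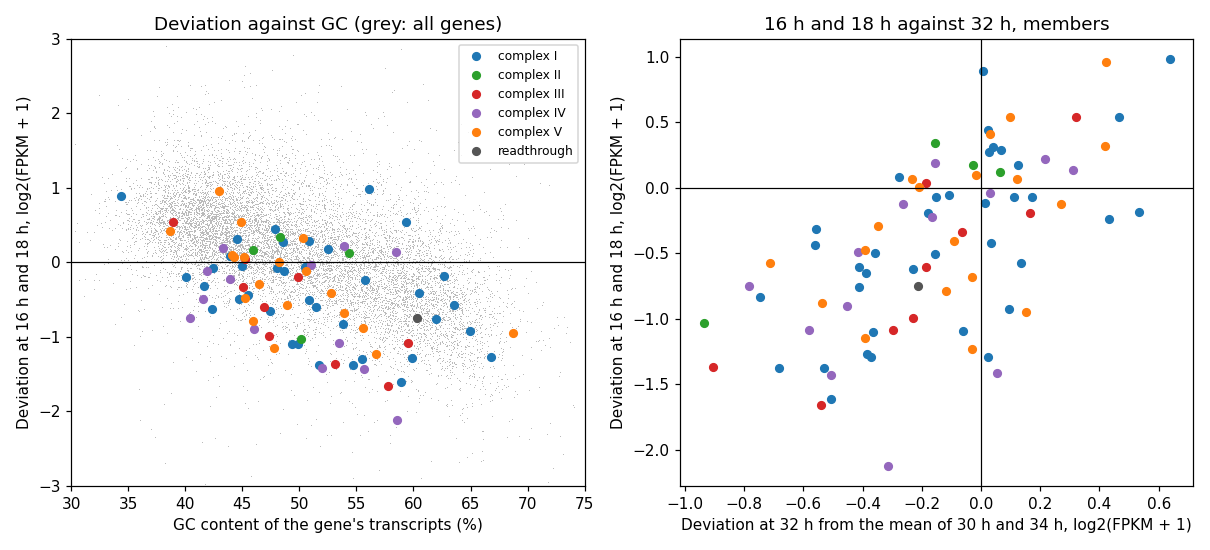
Left, deviation at 16 h and 18 h in log2(FPKM + 1) against the GC content of the gene's transcripts in percent, for all genes (grey, within the axes shown) and the 83 members by complex. Right, the same deviation against that at 32 h for the members, with r of 0.62 across the 83 genes.

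Over the 46 h of the series most levels were slightly lower at later hours, which depended on the scaling. Kendall's tau between FPKM and time was negative in 74 of the 83 genes, with a median of -0.25. Over all genes it was negative in 6281 of 12285, with a median of -0.01. Tested against 100000 random orderings of the time points, with Benjamini-Hochberg adjustment over all 12285 genes, 15 members fell (18.1%, adjusted p at most 0.05), against 12.8% of all genes. This test takes the time points as exchangeable, which successive samples of a culture need not be. Only COX6B2 rose (1.2% of members, against 15% of all genes), at levels of 0.272 to 2.41 FPKM. Apart from 0 h, COX6B2 reached 1 FPKM only after 24 h, so it met the filter of 12 time points through its later hours. Its rising call is therefore not independent of that filter. Of the falling genes 6 belong to complex I, 3 to complex IV and 6 to complex V.

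The strongest fall was that of NDUFS4 (tau -0.57, permutation adjusted p 0.000746), from 46.5 FPKM at 2 h to 33.3 FPKM at 46 h. ATP5F1B followed (tau -0.56), with 1084 to 1356 FPKM up to 14 h and 968 to 1006 FPKM from 36 h on. At 30 h and 32 h it read 950 and 1217 FPKM. NDUFC1 (tau -0.54) read 105 to 111 FPKM up to 14 h and 73.1 to 82.6 FPKM from 36 h on, with 104 FPKM at 30 h. These groups of hours were set after the values were seen, so their separation adds nothing to the test. NDUFV2 (-0.53), NDUFS7 (-0.51), ATP5MC2 (-0.47), ATP5MC3 (-0.44) and ATP5F1A (-0.43) were also among the falling genes. After COX6B2 (0.54), the largest values of tau were 0.25 for NDUFS1, 0.24 for COX7A2, 0.16 for NDUFA10 and 0.14 for COX7A2L, none of which passed the test.

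The drift was small beside the changes at 16 h and 18 h. At 10 pairs of hours 24 h apart, the later value was lower on average in 68 of the 83 genes, with a median difference of -0.08 on the log2 scale. Over all genes the later value was lower in 5799 of 12285, with a median difference of 0.01. The count of falling genes moved with single libraries: it was 10 without 46 h, where the members' summed FPKM of 15284 was the lowest outside 16 h and 18 h, and 24 without 0 h. Of all genes 10.5% and 15.9% fell in these fits, so without 46 h the share of members was near the background. With quantile normalization tau was negative in 52 of the 83 genes, and 6 fell, against 14.3% of all genes. Without 6 h, 16 h, 18 h and 32 h the count of falling members was 35 and that of all genes 16.3%.

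**Figure D5:**
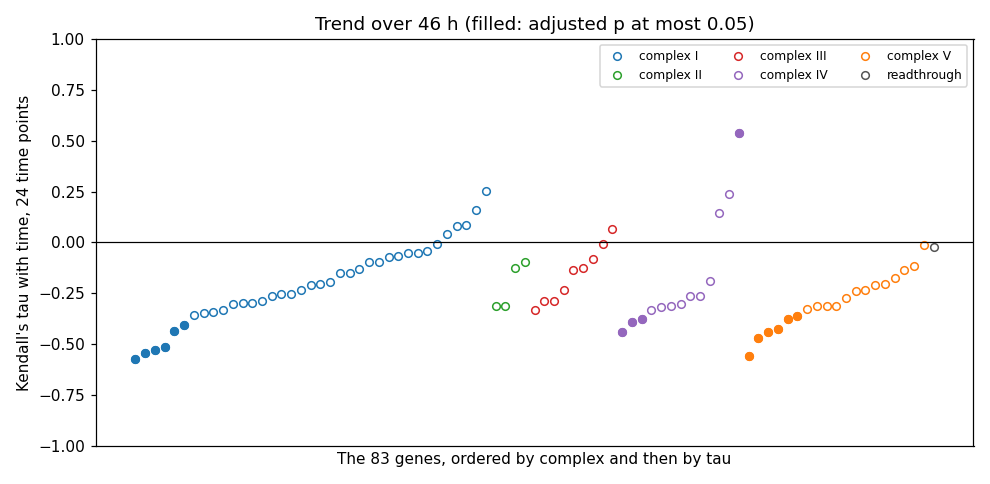
Kendall's tau between FPKM and time over 24 time points for each of the 83 genes, ordered by complex and then by tau, with filled points for an adjusted p of at most 0.05. Points below 0 number 74, and the only filled point above 0 is COX6B2.

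The share of members called for a 24 h rhythm was near that of all genes. The JTK statistic, the largest Kendall score over 12 phases of a 24 h cosine, was called at a permutation adjusted p of at most 0.05 for 8 of 83 genes (9.64%), against 13% of all genes. They were NDUFV1, ATP5MF (both 0.016), NDUFA7, UQCR10 (both 0.024), UQCRC2 (0.030), NDUFC1 (0.045), NDUFA3 and NDUFB5 (both 0.049). For 6 of the 8 the best phase put the peak at 6 h and 30 h. The exceptions were UQCRC2, with a peak at 22 h, and NDUFB5, with a peak at 2 h.

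NDUFV1 read 325 FPKM at 6 h, 277 FPKM at 30 h and 234 FPKM at 42 h, but also 226 FPKM at 0 h and 221 FPKM at 2 h. Its lowest value outside 16 h and 18 h was 214 FPKM at 22 h. A 24 h cosine that peaks at 6 h is lowest at 18 h, which the study named as a STRIPE. The count of members called by JTK depended on single libraries: it was 3 without 6 h and 4 without 8 h or without 10 h, when 6.85%, 8.00% and 8.45% of all genes were called, and 2 without 6 h, 16 h, 18 h and 32 h, when 7.55% were.

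Among genes of the same pathway outside the rule are 45 assembly factors, which build the complexes but are not part of them. Their median deviation was -0.09, with 5 at least 2-fold below the line and 2 above, against 7.11% and 8.95% of all genes. SDHAF1, which helps insert iron-sulphur clusters into SDHB, deviated by -1.36, SURF1 of complex IV assembly by -1.32 and UQCC2 of complex III assembly by -1.31, while COX19 (1.21) and COX20 (1.01), both of complex IV assembly, were above. In the trend test 11 of the 45 fell and 4 rose, against 12.8% and 15% of all genes. JTK called 4, against 13% of all genes. Of the 13 enzymes of the citric acid cycle 10 were above the line, where 7114 of all 12253 genes tested were above. Their median was 0.29, and fumarase, FH, was the highest at 1.08.

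The 5 electron carriers were on both sides of the line. ETFDH, which feeds electrons into ubiquinone, rose to 40.6 and 38.9 FPKM from 18.4 FPKM, at least 2-fold above the line, ETFB deviated by -0.77, and CYC1, cytochrome c1 and structurally part of complex III, by 0.17. Of the 13 mitochondrially encoded subunits 5 were listed, all above the line, but MT-ND4 (0.59), MT-ND4L (0.24) and MT-ATP8 (0.76) were within their own ranges over the 16 other pairs of hours. MT-ATP6, the subunit that faces the c-ring, read 553 and 829 FPKM against 188 to 377 FPKM at the other hours, and MT-CO3 read 54.3 and 88.9 FPKM against 0.970 to 8.55 FPKM. The 5 also varied over the other hours, with a median coefficient of variation of 48.3%.

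Of the 12 regulators 11 were listed, with a median deviation of 0.28. The activators YY1 (0.75), GABPA (0.44) and NRF1 (0.28) and the mitochondrial transcription factor TFAM (0.71) were above the line, and ESRRA, a nuclear receptor that acts on the same genes, fell from 34.5 to 9.28 and 9.35 FPKM (-1.69). The other large sets of short, abundant messages are given for comparison: the 77 cytosolic ribosomal protein genes had a median of -0.75, with 26 at least 2-fold below the line and 2 above, and the 78 mitochondrial ribosomal protein genes a median of -0.15, with 10 below and 5 above. Their median transcript lengths were 682 and 1034 bases, and whether the sets differ was not tested. Of all genes, 7.11% were at least 2-fold below the line and 8.95% at least 2-fold above it.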

How the data were processed

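RNA from K562 cells was sequenced at 24 time points after elutriation, with 1 library each. The authors aligned reads with STAR and made the FPKM values with Cufflinks and Cuffnorm, and the submitters' processing notes name genome build GRCh37. Tool versions and the annotation are not given in the sources used here. The second deposited table holds a score, the same genes after the authors' Z-score quantile normalization, and was used only as an alternative. All columns of the FPKM table were used.

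Deviations were computed on log2(FPKM + 1) for the 12253 genes that averaged 1 FPKM or more. The JTK statistic and Kendall's tau were tested by permutation with 100000 orderings and Benjamini-Hochberg adjustment over 12285 genes, in Python 3.11.15 with numpy 2.4.6, scipy 1.17.1, pandas 2.3.3 and matplotlib 3.10.9, after checks on simulated data. Transcript length and GC content came from GENCODE 29, in which 12180 gene IDs matched. No interval for counting error could be given, since depth is unknown.

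The genes and the pathway lists were chosen with earlier results of these data known. Described by rule were the highest and lowest mean and the largest and smallest deviation per complex, all SDH genes, and the core, c-ring and inhibitor genes named in the text. The values of 1 member are not reported here on their own. Genes beyond that rule were chosen after their values were seen. Alternatives covered scaling, pseudocount, filters, GC and length trends, periods and omitted time points, and those that omit 6 h, 32 h or single time points, or remove trends from the 2-fold counts, were added after seeing the data.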

Additional observations from a re-analysis of the deposited data

How the results depend on the processing

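No paired analysis was possible because each time point has 1 library and no replicate numbers are shared, and replicates could not be left out for the same reason, so each time point was left out in turn. The median deviation of all members at 16 h and 18 h was -0.40. It was -0.52 with each time point centred on its median, -0.64 with upper-quartile scaling, -0.56 with quantile normalization and -0.33 with GC and length trends removed. In the same order complex I gave -0.53, -0.65, -0.70 and -0.31. Complex II gave 0.034, -0.087, -0.17 and 0.060, with -0.034 after removing GC alone and 0.014 after removing length alone, so its sign was not stable. Complex III gave -0.72 centred, -0.48 with quantile normalization, -0.78 with length removed, -0.73 with both removed and -0.995 with a pseudocount of 0.1, where UQCRHL, at about 1 FPKM, is no longer damped. Complex IV gave -0.72 with upper-quartile scaling, -0.71 with quantile normalization, -0.99 with GC removed and -0.88 with both removed. Complex V gave -0.40, -0.53 and -0.49 under the 3 scalings, -0.12 with length removed and -0.23 with both removed. At 1.5-fold, 33 members were below the line and 3 above, against 16.8% and 23.9% of all genes. At 2-fold, 1 was above with GC removed and 2 with both removed, against 5.30% and 5.46% of all genes. The JTK count of 8 became 5 in the authors' cleaned table, 4 with GC removed, 1 at a period of 20 h, 1 at 28 h, 2 without 6 h, 16 h, 18 h and 32 h, and 3 to 11 with single time points left out. In the same order JTK called 11.6%, 6.49%, 1.95%, 3.34% and 7.55% of all genes, and 6.85% to 14.7% with single time points left out. The count of falling members, 15, became 6 with quantile normalization, 26 with centring, 29 without 16 h and 18 h, 6 from 24 h to 46 h, 0 in the first 12 time points, 35 without 6 h, 16 h, 18 h and 32 h, and 10 to 24 with single time points left out. In the same order 14.3%, 16.9%, 16.4%, 6.44%, 0.619% and 16.3% of all genes fell, and 9.36% to 15.9% with single time points left out. The count of rising members, 1, became 4 with quantile normalization and 0 in either part of the series. Of all genes 13.9% rose with quantile normalization, 1.23% in the first 12 time points and 5.69% from 24 h to 46 h. Apart from the fewer time points in the shortened series, the cause was not tested. Depth is unknown, so counting error could not be set beside any value.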
